A study of Mus musculus with 23 samples.

Results

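Acute phase genes encode the plasma proteins that the liver makes in larger or smaller amounts during inflammation, together with the receptors and transcription factors that control them. A list of 37 such genes of mouse liver was followed here, and 33 of them were measured, out of 19147 genes that the array names through a probe set with a single symbol. The list was written from the known biology of the response, with earlier results of these data known. Each gene was read at its brightest such probe set. Saa1, Lbp, Cd14 and Serpina3m had no probe set with a single symbol and were not measured. The samples were livers of male and female mice, either wild type (WT) or with a knockout (KO) of GPR86, which is the receptor P2ry13, a Gi-coupled receptor for ADP of the P2Y family. There were 6 female WT, 6 female KO, 5 male WT and 6 male KO livers, each on 1 array, the study being about gene expression in liver after loss of the receptor. No strain, age, diet, treatment or hour of collection is given in the sources used here, nor whether WT and KO mice were littermates, so these cannot be told apart from genotype or sex. The p-values measure the spread between animals within a group.

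The acute phase response is driven in hepatocytes by cytokines from macrophages. Interleukin-6 binds its receptor Il6ra and the shared signalling chain Il6st (gp130), which activates the transcription factor Stat3, and Socs3 is induced as the feedback inhibitor. Interleukin-1 acts through Il1r1, and the C/EBP factors Cebpb and Cebpd act on many of the same target genes. Positive acute phase proteins, such as serum amyloid A, haptoglobin and fibrinogen, go up in inflammation, and negative ones, such as fetuin-A (Ahsg), go down.

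The promoters of the 3 members Saa2, Saa3 and Lcn2 are shown because Saa2 and Lcn2 had the widest differences between genotypes described below, Saa3 varied with Saa2 from liver to liver, and each window holds a match to the letters TTGCNNAA, a core that C/EBP factors can bind. The windows are the 250 bases before the start of the gene, 5′ to 3′ on the gene's own strand, from RefSeq on GRCm38.p6, and capitals mark the match. Saa2 lies at chr7:46751583-46751832 on the plus strand, Saa3 at chr7:46715677-46715926 on the minus strand and Lcn2 at chr2:32387740-32387989 on the minus strand.
Saa2: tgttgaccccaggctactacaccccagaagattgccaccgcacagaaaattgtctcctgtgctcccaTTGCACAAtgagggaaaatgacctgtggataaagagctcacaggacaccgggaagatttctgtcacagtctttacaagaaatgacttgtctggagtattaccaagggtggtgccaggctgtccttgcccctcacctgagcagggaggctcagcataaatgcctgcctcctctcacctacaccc
Saa3: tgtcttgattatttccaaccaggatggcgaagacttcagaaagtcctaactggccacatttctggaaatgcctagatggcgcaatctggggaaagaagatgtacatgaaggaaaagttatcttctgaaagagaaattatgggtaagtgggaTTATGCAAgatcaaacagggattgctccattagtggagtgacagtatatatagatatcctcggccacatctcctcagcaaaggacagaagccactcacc
Lcn2: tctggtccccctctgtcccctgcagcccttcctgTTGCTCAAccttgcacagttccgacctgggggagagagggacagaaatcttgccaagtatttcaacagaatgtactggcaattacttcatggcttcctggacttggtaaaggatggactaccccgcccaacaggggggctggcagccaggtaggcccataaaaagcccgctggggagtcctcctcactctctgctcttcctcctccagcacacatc
In Saa2 the match spans positions -183 to -176 from the start and in Lcn2 positions -216 to -209, both on the gene's strand. In Saa3 it spans -99 to -92 on the opposite strand, so that the capitals show its complement.

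Promoters were found for 30 of the 33 measured genes, in 32 windows, and all but Hp, Orm1 and Cebpd were matched. Searched on both strands, TTGCNNAA stood in 15 of the 32 windows (46.9%), among them those of Orm2, Orm3, Saa4, Hpx, Fga, Fgb, Mt2 and Steap4, against 9.56% of the 32851 windows of the same length in the table. The STAT motif TTCNNNGAA stood in 7 windows (21.9%), those of Agt, Apcs, Fga, Fgb, Itih4, Socs3 and Steap4, against 7.02% of all windows. The TATA box TATAAA stood in 6 windows (18.8%) against 12.4%. GGANTTTCC, the only form of an NF-kappaB site that was searched, stood in 0 of the 32 windows and in 1.07% of all windows. At so low a share, 0 of 32 says little about NF-kappaB sites in these promoters. TTGCNNAA and TTCNNNGAA were both present in Fga, Fgb and Steap4, without overlap. These are matches of letters in a short window, and no binding was measured.

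All values below are log2 of the deposited intensity, and differences are differences of log2 values. Levels of different genes are not comparable, since each probe set has its own brightness. Medians of the 23 arrays lay between 19.5 and 21.1 in linear intensity, and arrays correlated with each other at 0.983 to 0.995. Signal without transcript, read from 4 probe sets of Y-linked genes on the 12 female arrays, lay between 2.53 and 3.69. P2ry13, read as a check of the labels, lay between 5.80 and 6.42 in WT and between 5.06 and 5.34 in KO, a difference of -1.12 in females (SE 0.09, limma, adjusted p = 6.07e-09) and of -0.80 in males (SE 0.09, limma, adjusted p = 2.12e-05). The KO and WT ranges of P2ry13 did not meet in either sex, and the labels do not say whether its probes fall inside the deletion. Defining hepatocyte markers were strong on all arrays, with a summed linear intensity of 5 of 6 listed markers between 40179 and 47709. In whole liver, fewer cells of a type and less RNA per cell cannot be told apart.

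In male livers the acute phase genes lay higher in KO than in WT as a group, but none of them passed the test across all probe sets. The difference was positive for 31 of 33 genes, with a median of 0.15 and a range of -0.08 to 1.36, while 48.18% of all probe sets were positive and their median was 0. The count was 32 of 33 after quantile normalization and 31 of 33 after equal array medians. None of the 33 genes had an adjusted p under 0.05, where 0.0313% of all probe sets did. At an unadjusted p under 0.05, 10 members were higher and 0 lower, where 3.16% of all probe sets were higher and 2.97% lower. By role, the sign was positive for 5 of 5 serum amyloids and pentraxins, 8 of 8 binders and carriers, 5 of 5 inhibitors and 3 of 3 fibrinogen chains. It was also positive for 3 of 3 receptors, 3 of 3 metallothioneins and metalloreductase, 3 of 4 signalling and transcription genes and 1 of 2 other plasma proteins. All these genes were read on the same livers, so their signs are not independent of each other. The exceptions were the negative acute phase gene Ahsg, at -0.02, and Cebpd, at -0.08.

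Saa2, a serum amyloid A that travels on high density lipoprotein, had the widest male difference. Its values were 6.26, 5.55, 5.62, 5.31 and 5.54 in the 5 male WT livers (replicates 2 to 6), and from 5.69 through a median of 6.61 to 9.25 in the 6 male KO livers. The KO range was 11.79-fold from lowest to highest on the linear scale against 1.93-fold in WT, and the groups overlapped through KO replicate 4 (5.69) and WT replicate 2 (6.26). The mean difference was 1.36 (SE 0.36, 2.57-fold higher, limma, adjusted p = 0.406). The fit takes 1 spread for all groups, while the SD of Saa2 was 1.22 in male KO and 0.36 in male WT, so this SE may be too small. The probes of Saa2 may also read its close copy Saa1, which was not measured, so the signal cannot be assigned to Saa2 alone. Saa3, a serum amyloid made by macrophages as well as hepatocytes, read 6.37 ± 0.49 (SD, n = 5) in male WT and 6.55 ± 0.15 (SD, n = 6) in male KO. Saa4, the constitutive serum amyloid, read 11.78 ± 0.20 and 11.96 ± 0.25, and the pentraxins Apcs (serum amyloid P) and Crp (C-reactive protein) differed by 0.29 and 0.05, with no call.

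Among the inhibitors, Itih4, a heavy chain of the inter-alpha-trypsin inhibitor family and itself an acute phase protein, came nearest to a call. Its values were 12.99, 13.01, 13.07, 13.04 and 13.17 in the male WT livers, in the order of their numbers, and from 13.16 through 13.40 to 13.69 in male KO. Only the lowest KO liver, replicate 5 at 13.16, reached down to the highest WT liver. The difference was 0.35 (SE 0.08, 1.27-fold higher, limma, adjusted p = 0.158). It passed the threshold without that KO liver (0.39, limma, adjusted p = 0.0406), but leaving out the lowest KO value widens the difference by construction. Without any other single array it did not pass. With an intensity trend and robust variance it passed (0.35, limma, adjusted p = 0.0308). Over the alternatives its adjusted p from limma ran from 0.0308 to 0.561.

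Itih3, another heavy chain of the same family, was the single member whose male groups did not overlap. The male WT livers stood at 12.70, 12.83, 12.79, 12.74 and 12.89, and male KO ran from 12.90 through 13.10 to 13.38. Of all probe sets, 0.25% lay wholly higher in male KO and 0.305% wholly lower. The difference was 0.30 (SE 0.08, limma, adjusted p = 0.424). Serpina3n, a serine protease inhibitor, was 0.29 higher (SE 0.10, limma, adjusted p = 0.642), Itih1 0.15 higher (limma, adjusted p = 0.773) and Itih2 0.12 higher (limma, adjusted p = 0.824).

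Orm2 and Lcn2, among the binders and carriers, varied widely between the male KO animals. Orm2, an orosomucoid (alpha-1-acid glycoprotein) that binds drugs and lipids, stood at 6.32, 5.76, 5.85, 6.15 and 6.28 in the male WT livers, and from 5.75 through 6.79 to 8.80 in male KO. Lcn2, the siderophore-binding lipocalin, read 5.90, 4.63, 5.64, 6.20 and 6.23 in male WT, and from 4.90 through 6.59 to 8.74 in male KO. For both genes at least 1 KO liver lay as low as WT while the highest lay far above. The differences were 0.91 for Orm2 (SE 0.33, limma, adjusted p = 0.719) and 0.98 for Lcn2 (SE 0.41, limma, adjusted p = 0.747). The SD of male KO was 1.08 for Orm2 and 1.28 for Lcn2, against 0.25 and 0.66 in male WT.

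Lrg1, the leucine-rich alpha-2-glycoprotein, had tight WT values of 11.86, 11.92, 12.03, 11.85 and 12.06 and male KO values from 11.92 through 12.51 to 13.33. Its difference was 0.56 (SE 0.17, 1.47-fold higher, limma, adjusted p = 0.524). Steap4, a metalloreductase induced by inflammatory cytokines, was 0.43 higher (SE 0.13, limma, adjusted p = 0.524), at 9.96 ± 0.16 (SD, n = 5) in male WT and 10.40 ± 0.39 (SD, n = 6) in male KO. The other carriers differed less. The haemoglobin binder Hp (haptoglobin) was 0.12 higher, the haem binder Hpx (hemopexin) 0.09, the copper carrier Cp (ceruloplasmin) 0.17 and Orm1 0.16, none with a call. The fibrinogen chains Fga, Fgb and Fgg, which form the clot protein, differed by 0.09, 0.08 and 0.04.

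None of the regulators had a call. Stat3 read 8.65 ± 0.12 (SD, n = 5) in male WT and 8.90 ± 0.37 (SD, n = 6) in male KO (0.25 higher, limma, adjusted p = 0.812), and Socs3 read 4.24 ± 0.26 and 4.50 ± 0.47. The receptors Il6ra, Il6st and Il1r1 differed by 0.13, 0.14 and 0.12, and the factor Cebpb by 0.15. The metallothioneins Mt1 and Mt2, which bind zinc and are induced by interleukin-6 and glucocorticoids, differed by 0.07 (95% interval -0.60 to 0.73) and 0.14 (-0.63 to 0.91), so these arrays leave room for changes of over 1.5-fold in either direction. Agt, the angiotensin precursor, differed by 0.01 (-0.12 to 0.14).

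**Figure D1:**
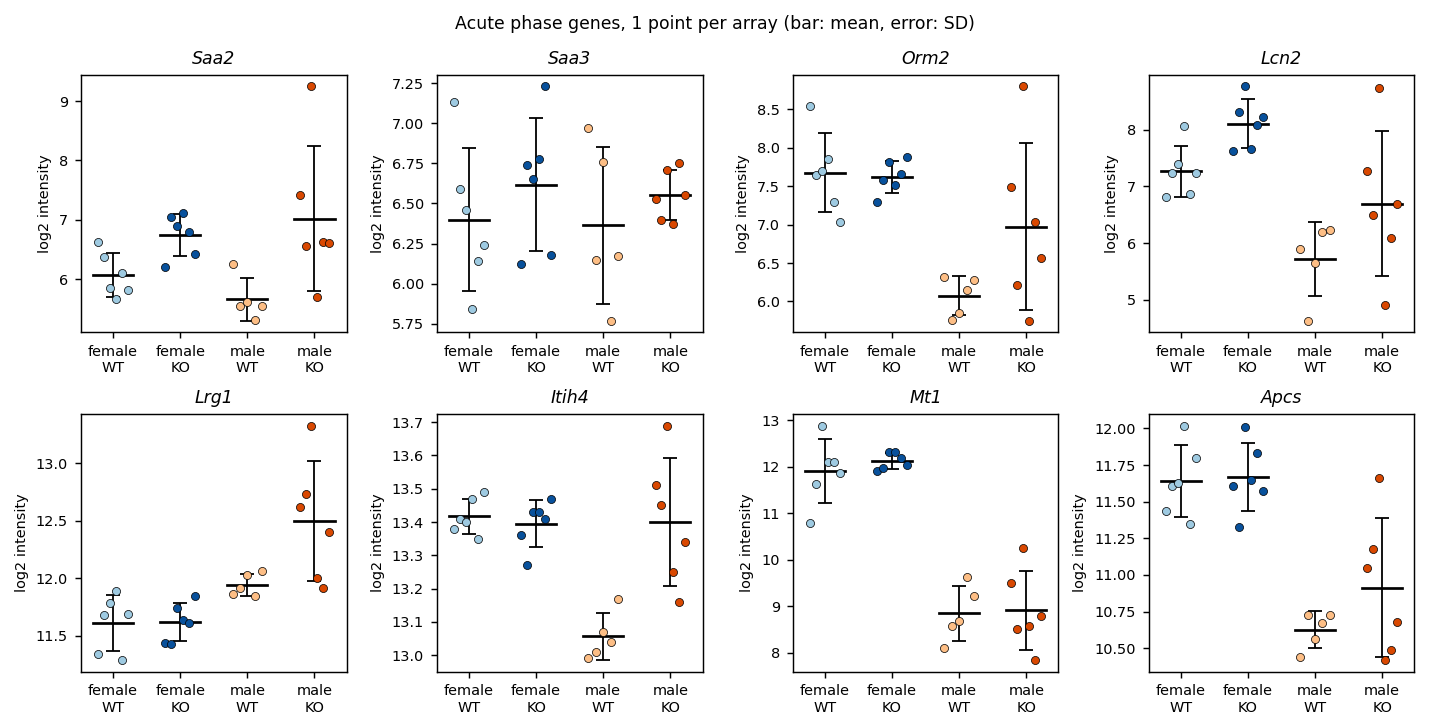
Log2 intensity (y axis, a separate scale in each panel) of 8 acute phase genes in female WT, female KO, male WT and male KO livers, with 1 point per array, the mean as a bar and the SD as error. Female and male WT do not overlap for Orm2, Lcn2, Itih4, Mt1 and Apcs. In male KO, a single array is highest for Saa2 (9.25), Orm2 (8.80), Lcn2 (8.74), Lrg1 (13.33), Itih4 (13.69), Mt1 (10.26) and Apcs (11.66).

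That array is male KO replicate 3. It was the highest of the 6 male KO livers for 25 of the 33 genes, where it was highest for 16% of all probe sets, and it was also the highest of all 11 male livers for 25 genes, against 9.12% of all probe sets. It lay above the male WT mean for 31 of 33 genes, with a median deviation of 0.41, while its median deviation over all probe sets was -0.01. At the other end, male KO replicate 4 was the lowest of its group for 15 genes (20.2% of all probe sets) and replicate 5 for 11 (18.9%). Male KO replicates 1, 2 and 6 had median member deviations of 0.18, 0.16 and 0.10, replicate 4 had 0.01 and replicate 5 had 0.05. The summed hepatocyte markers of replicate 3 were the highest of its group (44146), its Kupffer cell sum was the fifth of 6 (3255) and its neutrophil sum the third (187.8). Their part in the result was not tested.

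Without replicate 3 the male group lay less far from WT, and still on the same side. Then 28 of 33 genes were positive, with a median of 0.12, 7 were higher at an unadjusted p under 0.05 and 0 lower, and 0 passed after adjustment. Saa2 went from 1.36 to 0.92 (SE 0.23, limma, adjusted p = 0.417), Lcn2 from 0.98 to 0.57, Orm2 from 0.91 to 0.54 and Lrg1 from 0.56 to 0.39. Among the smaller differences, Stat3 went from 0.25 to 0.14, Socs3 from 0.26 to 0.16, Apcs from 0.29 to 0.14, Saa4 from 0.18 to 0.09, Il1r1 from 0.12 to 0.06 and Cebpb from 0.15 to 0.02. Itih4 kept 83.1% of its difference, at 0.29 (SE 0.07, limma, adjusted p = 0.375), and Itih3 kept 81.2%, at 0.25. Mt1 and Mt2 turned negative, at -0.20 and -0.16, as did Agt, at -0.02.

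**Figure D2:**
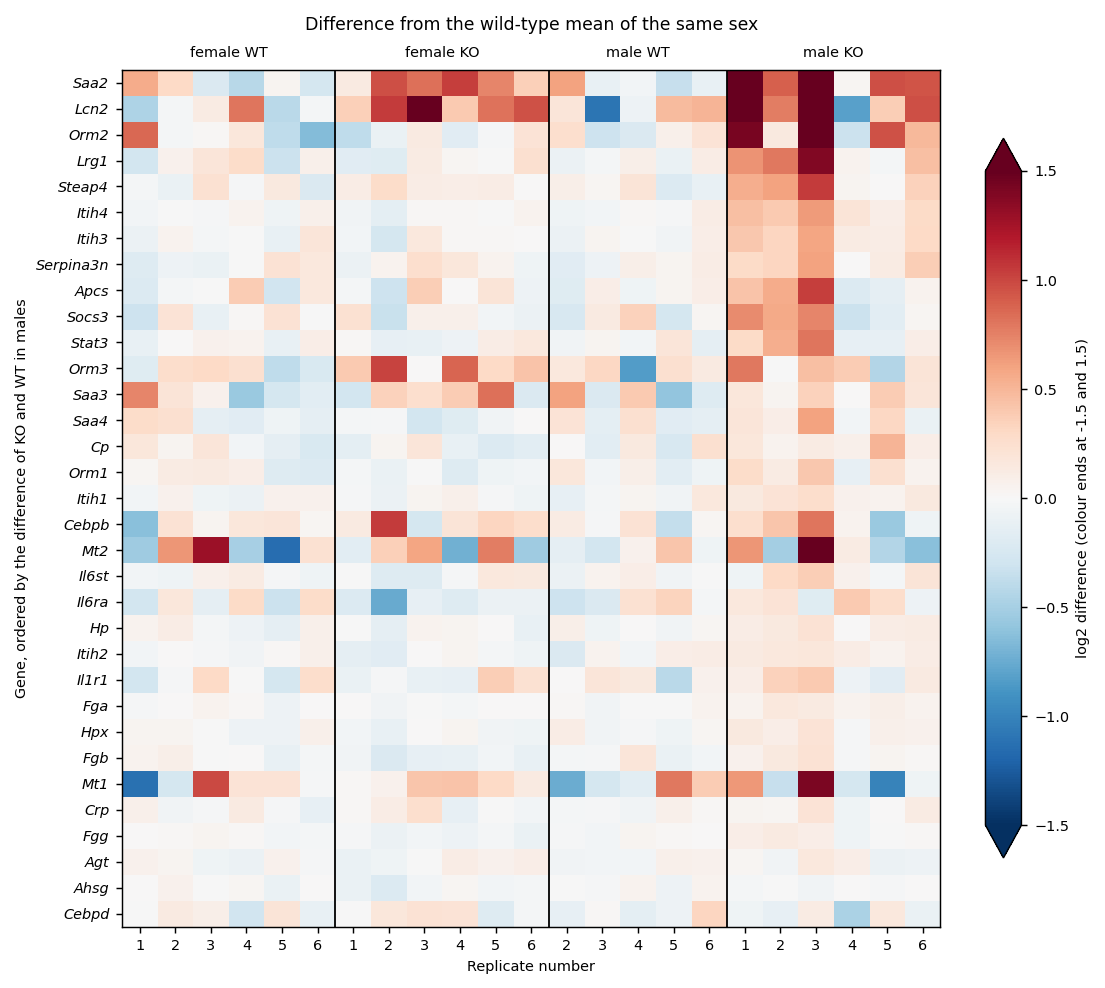
Log2 difference of each of 33 acute phase genes (rows, ordered by the male difference of KO and WT) from the WT mean of the same sex on each of 23 arrays (columns, by group and replicate number), with colours ending at -1.5 and 1.5. Male KO replicate 3 is red in most rows, replicates 1 and 2 less so, and replicates 4 and 5 mix red and blue, while the female KO columns are red mainly for Saa2, Lcn2 and Orm3.

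In female livers the acute phase genes as a group did not lie to one side. Of the 33 genes 15 were positive and 18 negative, with a median of -0.01, which is also the median of all probe sets, and after equal array medians 20 were positive with a median of 0.01. None passed, where 0.0547% of all probe sets did. At an unadjusted p under 0.05, 2 were higher and 0 lower, against 2.86% and 3.01% of all probe sets. Without female KO replicate 2, 20 genes were positive with a median of 0.02, and 0 had an unadjusted p under 0.05. Leaving out 1 of 4 other livers, replicates 5 and 6 of female KO and 2 and 6 of female WT, gave a count of 1 each time. For 0 of the 33 genes did the female groups not overlap, where 0.104% of all probe sets lay wholly higher in KO and 0.125% wholly lower.

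Lcn2 was the widest female difference. It ran from 6.81 through 7.24 to 8.07 in the 6 female WT livers and from 7.62 through 8.15 to 8.77 in the 6 female KO livers. A single WT liver, replicate 4 at 8.07, lay inside the KO range, and the other 5 lay at or below 7.39. The difference was 0.84 (SE 0.39, 1.79-fold higher, limma, adjusted p = 0.848). Saa2 ran from 5.66 through 5.98 to 6.63 in WT and from 6.21 through 6.85 to 7.11 in KO, with a difference of 0.68 (SE 0.34, limma, adjusted p = 0.858). Orm3, the third orosomucoid gene of the mouse, ran from 6.03 through 6.44 to 6.71 in WT and from 6.42 through 6.82 to 7.42 in KO, with a difference of 0.50 (SE 0.20, limma, adjusted p = 0.825). For all 3 genes the KO median lay above the WT median, and the groups overlapped.

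The remaining female differences were small. Cebpb was 0.29 higher (SE 0.19, limma, adjusted p = 0.894), and the receptor Il6ra 0.24 lower in KO (-0.24, SE 0.13, limma, adjusted p = 0.873). Without female KO replicate 2 these were 0.13 for Cebpb and -0.14 for Il6ra, and without female WT replicate 1 Cebpb was at 0.16. All 3 fibrinogen chains were on the negative side, Fgb at -0.11 (SE 0.06, limma, adjusted p = 0.877), Fgg at -0.06 and Fga at -0.01, and Ahsg was at -0.07. Itih4 and Itih3 were both at -0.02, with 95% intervals of -0.17 to 0.13 and -0.18 to 0.15. Orm2 was at -0.06 (-0.70 to 0.59) and Lrg1 at 0.00 (-0.32 to 0.33). Stat3 and Socs3 were both at -0.01.

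Averaged over the sexes with equal weight, 28 of 33 genes were positive, with a median of 0.08, while 47.08% of all probe sets were positive. None passed, where 0.0808% of all probe sets did. At an unadjusted p under 0.05, 8 members were higher and 0 lower, against 1330 and 1321 of all 38385 probe sets. Saa2 led with 1.02 (SE 0.25, 2.03-fold higher, limma, adjusted p = 0.249), followed by Lcn2 with 0.91 (SE 0.28, limma, adjusted p = 0.515), Steap4 with 0.28 and Itih4 with 0.16 (limma, adjusted p = 0.521 for both). Saa2 passed when male KO replicate 3 was left out (0.80, limma, adjusted p = 0.0418) or replicate 4 (1.15, limma, adjusted p = 0.0431), the livers at the top and bottom of its range. Serpina3n at 0.17, Orm3 at 0.36, Itih3 at 0.14 and Lrg1 at 0.28 came next, with adjusted p of 0.643 to 0.67 from limma.

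Whether the genotype difference itself depended on sex was tested by subtracting the male KO effect from the female one. It was negative for 27 of 33 genes and positive for 6, with a median of -0.16 and a range of -0.96 to 0.28, while 49.58% of all probe sets were positive. None passed, where 0.0104% of all probe sets did. Itih4 had the smallest p, with -0.37 (SE 0.10, limma, adjusted p = 0.869), followed by Itih3 with -0.32, Lrg1 with -0.56 and Fgb with -0.19 (limma, adjusted p = 0.962 for each). The male and female patterns are therefore not shown to differ for any single gene.

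**Figure D3:**
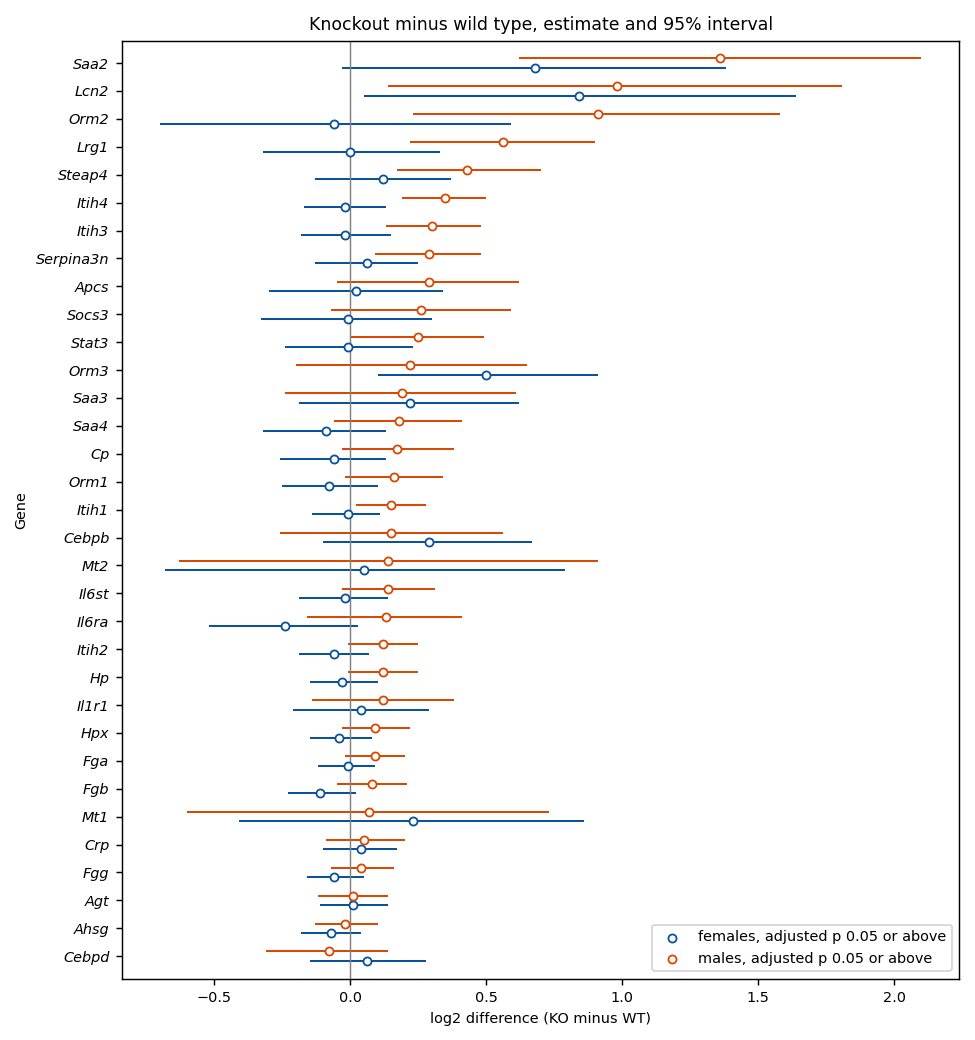
KO minus WT difference on the log2 scale (x axis) for 33 acute phase genes (rows), in females (blue) and males (orange), with the limma estimate as a point and its 95% interval as a line. Male estimates lie to the right of 0 for 31 genes and female estimates for 15 (20 after equal array medians), and every point is open because 0 genes passed an adjusted p of 0.05.

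More of these genes passed the test between the sexes than between the genotypes. In WT, 12 of the 33 genes were higher in females (2.54% of all probe sets) and 0 lower (1.71%). In KO, 7 were higher in females (3.21% of all probe sets) and 2 lower (1.64%). Over all 33 genes the median difference was 0.17 in WT and -0.03 in KO, and 27 and 15 genes were positive, against 46.88% and 44.69% of all probe sets. The KO median has no settled sign, since it was 0.05 with 20 genes positive without male KO replicate 3, and 0.01 with 17 positive without male KO replicate 1 or replicate 2. The groups did not overlap for 12 members in WT, all higher in females, where 2.18% of all probe sets were wholly higher and 1.69% wholly lower. In KO, 4 members were wholly higher in females (2.25% of all probe sets) and 2 wholly lower (1.14%). The comparisons in WT and KO use different animals.

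The metallothioneins had the widest sex difference in both genotypes. Mt1 stood at 10.79, 11.64, 12.89, 12.11, 12.11 and 11.88 in the 6 female WT livers and ran from 11.92 through 12.12 to 12.33 in female KO. In males its values were 8.11, 8.59, 8.69, 9.64 and 9.23 in WT and ran from 7.85 through 8.69 to 10.26 in KO. No male liver reached the lowest female liver. Mt1 was 8.29-fold higher in females in WT (3.05, SE 0.33, limma, adjusted p = 2.98e-07) and 9.28-fold higher in KO (3.21, SE 0.31, limma, adjusted p = 2.94e-08). Mt2 followed it, 7.5-fold higher in WT (2.91, SE 0.38, limma, adjusted p = 7.17e-06) and 7.06-fold higher in KO (2.82, SE 0.36, limma, adjusted p = 3.9e-06). Its female values lay between 8.74 and 11.17 and its male values between 6.35 and 8.62. Mt1 and Mt2 are related genes, and their probe sets may share signal.

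Acute phase plasma proteins followed. Apcs, the major pentraxin of mouse plasma, ran from 11.35 through 11.62 to 12.02 in female WT, and stood at 10.44, 10.73, 10.56, 10.67 and 10.73 in the male WT livers. It was 2.02-fold higher in females in WT (1.02, SE 0.16, limma, adjusted p = 0.00017) and 1.68-fold in KO (0.75, SE 0.16, limma, adjusted p = 0.00254). In KO the groups overlapped, because male KO replicate 3 read 11.66 while female KO started at 11.33.

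Orm3 was 2.16-fold higher in females in WT (1.11, SE 0.21, limma, adjusted p = 0.00106) and 2.62-fold in KO (1.39, SE 0.20, limma, adjusted p = 2.24e-05). Orm2 was 3.05-fold higher in WT (1.61, SE 0.33, limma, adjusted p = 0.00288), and in KO it differed by 0.65 (limma, adjusted p = 0.307). Orm1 showed no call in either genotype, with 13.18 ± 0.16 (SD, n = 6) in female WT and 13.05 ± 0.13 (SD, n = 5) in male WT. The 3 orosomucoid genes are close copies, and how far their probe sets share signal was not tested.

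Lcn2 was 2.93-fold higher in females in WT (1.55, SE 0.41, limma, adjusted p = 0.0245) and 2.66-fold in KO (1.41, SE 0.39, limma, adjusted p = 0.0298). The WT call was lost when any of 3 arrays was left out, female WT replicate 4 (1.39, limma, adjusted p = 0.0678), male WT replicate 3 (1.28, 0.0861) or male WT replicate 4 (1.53, 0.0549). The KO call was lost when any of 8 arrays was left out, female KO replicates 2, 3, 5 and 6 and male KO replicates 2, 4, 5 and 6 (1.05 to 1.42, limma, adjusted p = 0.0514 to 0.0824). Its direction was the same throughout.

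Other plasma proteins had smaller differences. Agt was 1.27-fold higher in females in WT (0.35, SE 0.06, limma, adjusted p = 0.00101) and 1.28-fold in KO (0.35, SE 0.06, limma, adjusted p = 0.000357), with all 12 female livers at or above 12.51 and all 11 male livers at or below 12.42. Itih4 was 1.29-fold higher in WT (0.36, SE 0.08, limma, adjusted p = 0.00349) and at -0.01 in KO, where the male mean of 13.40 equalled the female mean of 13.40. Itih2 was 1.23-fold higher in WT (0.30, SE 0.06, limma, adjusted p = 0.00507) and 0.11 higher in KO (limma, adjusted p = 0.382). Ahsg was 1.16-fold higher in WT (0.21, SE 0.06, limma, adjusted p = 0.0258), and its value in KO was 0.16 (limma, adjusted p = 0.0886). The WT call of Ahsg was lost without any of 5 arrays, female WT replicates 2 and 4 and male WT replicates 2, 3 and 5 (0.19 to 0.21, limma, adjusted p = 0.0519 to 0.076). For Itih4, Itih2, Orm2 and Ahsg the difference of the sex effects between genotypes, which is the test of the difference of KO effects, was not past the threshold.

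The interleukin-6 receptor chains were also higher in females in WT. Il6ra ran from 7.96 through 8.30 to 8.57 in female WT and stood at 7.14, 7.24, 7.68, 7.79 and 7.43 in the male WT livers, 1.77-fold higher in females (0.82, SE 0.14, limma, adjusted p = 0.000417). In KO it was 1.37-fold higher (0.45, SE 0.13, limma, adjusted p = 0.0485), a call that was lost without any of 13 arrays: female KO replicates 1, 3, 4, 5 and 6, male KO replicates 1, 2, 3, 5 and 6, female WT replicates 2 and 3, and male WT replicate 6 (0.39 to 0.48, limma, adjusted p = 0.0523 to 0.124). Of its other probe sets, one with a mean of 6.17 was also higher in females in WT (0.54, limma, adjusted p = 0.00256) and another with a mean of 5.75 lay on the other side (-0.16, limma, adjusted p = 0.368), so the probe sets of Il6ra do not give a single direction. Il6st was 1.31-fold higher in WT (0.39, SE 0.08, limma, adjusted p = 0.00523) and 0.22 higher in KO (limma, adjusted p = 0.123), and its dimmer probe set gave 0.38 in WT (limma, adjusted p = 0.2). Il1r1 showed no call, with 7.57 ± 0.25 (SD, n = 6) in female WT and 7.66 ± 0.24 (SD, n = 5) in male WT. Stat3, Socs3, Cebpb and Cebpd also showed none.

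Lrg1 and Saa4 passed in KO as lower in females. Lrg1 ran from 11.43 through 11.62 to 11.85 in female KO and from 11.92 through 12.51 to 13.33 in male KO, and was 1.85-fold lower in females (-0.88, SE 0.16, limma, adjusted p = 0.000473). Saa4 ran from 11.28 through 11.52 to 11.56 in female KO and from 11.68 through 11.92 to 12.38 in male KO, and was 1.4-fold lower in females (-0.49, SE 0.11, limma, adjusted p = 0.00506). For both genes the sexes did not overlap in KO. In WT they lay on the same side, at -0.33 and -0.22, without a call. Hp was also lower in KO females (-0.18, limma, adjusted p = 0.0823), and it passed with dim probe sets left out (0.0405), with array weights (0.0496) and with an intensity trend and robust variance (0.0184).

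Crp, a major acute phase protein in humans and a minor one in the mouse, read 12.27 ± 0.09 and 12.31 ± 0.13 in female WT and KO (SD, n = 6 each), and 12.11 ± 0.05 (SD, n = 5) and 12.17 ± 0.09 (SD, n = 6) in male WT and KO. Hp read 13.94 ± 0.10 and 13.92 ± 0.08 in female WT and KO, and 13.98 ± 0.07 and 14.10 ± 0.07 in male WT and KO. These and the fibrinogen chains kept within narrow bounds, with no group of Crp, Hp, Fga, Fgb or Fgg spanning more than 1.29-fold from its lowest to its highest liver.

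**Figure D4:**
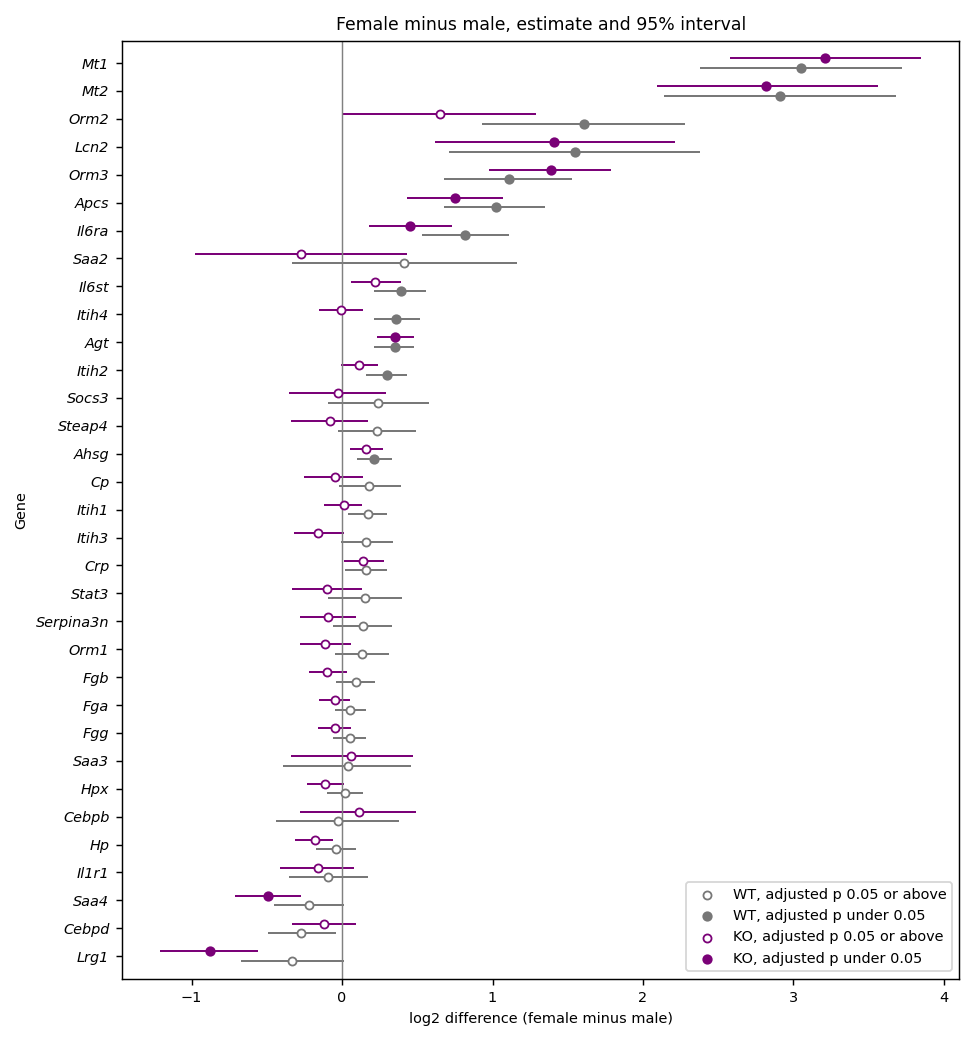
Female minus male difference on the log2 scale (x axis) for 33 acute phase genes (rows) in WT (grey) and KO (purple), with the limma estimate as a point, its 95% interval as a line, and filled points for an adjusted p under 0.05. Filled points number 12 in WT, all to the right of 0, and 9 in KO, of which Lrg1 and Saa4 lie to the left.

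Markers of Kupffer cells, the liver macrophages, and of some other cell types moved with sex in the same livers. Of 8 listed markers 7 were measured and all 7 were higher in females in both genotypes, 4 of them with a call in WT (Vsig4 0.60, Adgre1 0.52, Timd4 0.62 and Cd5l 0.45) and 5 in KO, with Marco added (1.19, limma, adjusted p = 0.0113). Of all probe sets, 2.54% had a call as higher in females in WT and 1.71% as lower, and 3.21% and 1.64% in KO. The summed linear intensity of the 7 markers was 4043 to 4813 in female WT, 4200 to 5333 in female KO, 3015 to 3806 in male WT and 2923 to 3934 in male KO. The female and male ranges did not overlap. Of 6 lymphocyte markers, 4 were on the higher side in females in WT and 5 in KO. Nkg7 was higher in females in WT (0.42, limma, adjusted p = 0.00438) and KO (0.41, 0.00262), as was Cd3d (0.42, 0.017 in WT and 0.34, 0.0431 in KO). All 5 endothelial markers were on the higher side in females, with a median of 0.25 in WT and 0.18 in KO and 1 call, that of Cdh5 in KO (0.46, limma, adjusted p = 0.000256). The cholangiocyte marker Sox9 was lower in females in WT (-0.41, limma, adjusted p = 0.0234), while 3 of 4 cholangiocyte markers were on the higher side (median 0.06). In KO the acinar marker Cela1 was lower (-0.51, limma, adjusted p = 0.023), while 3 of 4 acinar markers were on the higher side (median 0.12). The stellate cell marker Dcn was higher in KO (0.25, limma, adjusted p = 0.0277), and 4 of 5 stellate cell markers were on the higher side. Their part in the sex difference of the acute phase genes was not tested. None of the markers of hepatocytes, Kupffer cells, neutrophils, lymphocytes, endothelium, stellate cells, cholangiocytes, pancreatic acini or fat had a call between KO and WT in either sex, where 0.0547% of all probe sets did in females and 0.0313% in males. The summed neutrophil markers lay between 161.7 and 220.3 over all arrays. The neutrophil markers Elane and Camp and the fat markers Adipoq and Plin1 had group means of 3.01 to 3.6, within the range of signal without transcript. A missing call says little for these genes.

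Other genes of the same pathway, 44 measured of 52 listed, were read the same way. Between KO and WT none passed in females or in males, where 0.0547% and 0.0313% of all probe sets did. At an unadjusted p under 0.05, 0 were higher or lower in females, against 2.86% and 3.01% of all probe sets. In males 6 were higher and 2 lower at that threshold, against 3.16% and 2.97%. Fgl1, a fibrinogen-like liver protein induced by interleukin-6, had the smallest p in males, with a mean of 10.26 in WT and 11.13 in KO (0.87, SE 0.19, limma, adjusted p = 0.143), while both female means were higher, 11.51 in WT and 11.53 in KO. Serping1, the C1 inhibitor, was 0.19 higher in males (limma, adjusted p = 0.586) and Fn1, fibronectin, 0.26 higher (limma, adjusted p = 0.719). In females Ttr (transthyretin, a negative acute phase protein), Nfkbia (the NF-kappaB inhibitor) and Il1rn (the interleukin-1 receptor antagonist) had the smallest p, at -0.13, 0.20 and -0.24 (limma, adjusted p = 0.853 to 0.879). The cytokine Il6 itself had group means of 2.82 to 2.95, within the range of signal without transcript.

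Between the sexes, 6 of these 44 genes were higher in females in WT (2.54% of all probe sets) and 1 lower (1.71%). The lectin Mbl2 was 0.67 higher, Fgl1 1.24, the pantetheinase Vnn1 1.22, Il1rn 0.66, the oncostatin M receptor Osmr 0.49 and Fn1 0.41 (limma, adjusted p = 3.42e-07 to 0.0106), and Il1rap, the accessory chain of the interleukin-1 receptor, was lower (-0.53, limma, adjusted p = 0.000821). In KO, 4 were higher (3.21% of all probe sets), Mbl2 (0.91), Vnn1 (1.14), Osmr (0.39) and the growth factor Igf1 (0.29). In the same comparison 1 was lower (1.64% of all probe sets), Il1rap (-0.41, limma, adjusted p = 0.00587). Fgl1 differed by 0.39 in KO (limma, adjusted p = 0.256).

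Finally, the members were compared with Saa2 within groups, to see which genes went up and down in the same livers. Each gene was expressed as its deviation from its group mean on the 23 arrays, and 32 relations with Saa2 were computed. Pearson's r was positive for 29 of 32, with a median of 0.44, and 6 passed after adjustment over the 32 relations, 5 positive and 1 negative. Relations of Saa2 with genes outside the list were not computed, so these counts cannot be called particular to acute phase genes. Orm2 had r = 0.85 and rho = 0.58 (permutation p = 0.0005 and 0.0127, adjusted 0.008 and 0.127), and Hpx r = 0.69 and rho = 0.59 (permutation p = 0.00075 and 0.0064, adjusted 0.008 and 0.102). Saa3 had r = 0.47 and rho = 0.61 (permutation p = 0.00012 and 0.00077, adjusted 0.00384 and 0.0246), Saa4 r = 0.67 and rho = 0.54 (permutation p = 0.0029 and 0.0159, adjusted 0.0186 and 0.127), and Hp r = 0.53 and rho = 0.48 (permutation p = 0.00644 and 0.0238, adjusted 0.0343 and 0.127). Il6ra was the negative one, with r = -0.52 and rho = -0.46 (permutation p = 0.00289 and 0.0227, adjusted 0.0186 and 0.127). Saa3 was the gene that passed by both measures.

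The positive median rests on the 2 livers farthest from the median of Saa2, male KO replicate 3, 2.23 above its group mean for Saa2, and male KO replicate 4, 1.33 below (a deviation of -1.33). Without them the median r over the 32 genes was 0.01, and Saa3 alone passed (r = 0.71, permutation, adjusted p = 0.0125). Orm2 then had r = 0.53 (permutation, adjusted p = 0.245), Hpx 0.53 (0.245), Saa4 0.47 and Hp 0.37, Il6ra kept r = -0.45 (permutation, adjusted p = 0.306), and Lcn2 went from r = 0.68 (permutation p = 0.0264, adjusted 0.0939) to 0.04. Without all male KO arrays Saa3 again passed alone (r = 0.82, permutation, adjusted p = 0.00864), the median r was -0.04, and Il6ra had r = -0.54 (permutation, adjusted p = 0.285). With fewer arrays a lost call does not show that a relation came from the arrays left out. Saa2 and Saa3 belong to one gene family, and the sharing of signal between their probe sets was not tested.

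**Figure D5:**
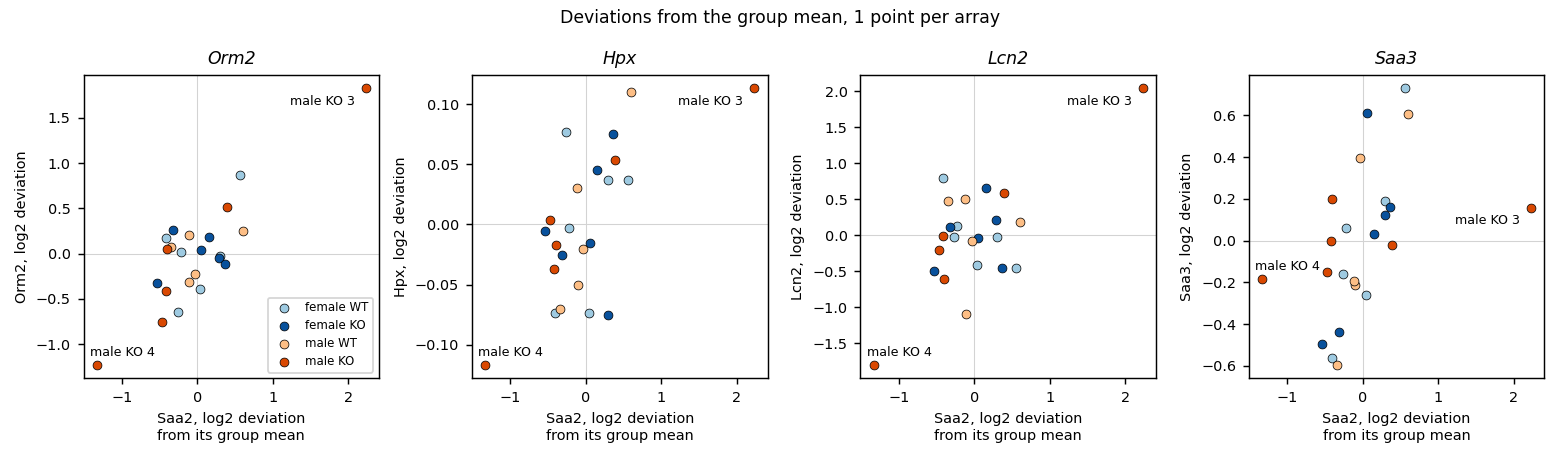
Deviation of Orm2, Hpx, Lcn2 and Saa3 from the group mean (y axis, log2, a separate scale in each panel) against that of Saa2 (x axis, log2) on 23 arrays, 1 point per array, coloured by group. Male KO replicates 3 and 4 lie at the ends for Orm2 and Lcn2, while for Saa3 the trend is carried by the other arrays, with r = 0.71 without these 2.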

How the data were processed

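RNA of 23 mouse livers was measured on arrays, and the deposited table gives a linear intensity for 38385 probe sets, made with RMA by the authors per the submitters' processing notes (with no version or settings there). Labelled cRNA was made in parallel in plates, per the labels' protocols; no batch is given. Groups and replicate numbers come from the sample titles. Gene names come from the platform's annotation, in which 24478 probe sets have 1 symbol and were used, and 65 have several and named no gene. Intensities were taken to log2 without further scaling or filter. The number of arrays limits the precision.

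limma 3.58.1 in R 4.3.3 fitted 1 mean per group to all 23 arrays (19 residual and 7.61 prior degrees of freedom), with Benjamini-Hochberg adjustment over all 38385 probe sets and a threshold of 0.05. Errors of differences are standard errors and 95% intervals from limma, errors of means are SDs. For each probe set the fit takes 1 spread for all groups, so an error may be too small where a compared group varies more than the others. Fit and permutation script were tested on simulated data. Members and lists (pathway, markers, motifs) were chosen with earlier results of these data known. Genes named are P2ry13, the passing members of each comparison, filled up to 8 by smallest p (4 for the difference of KO effects), a fixed set by level, and, of the pathway, those passing or the 3 with the smallest p. Relations between genes used 100000 permutations of arrays within groups, two-sided. They were planned with Saa1, which had no probe set with a single symbol; Saa2 took its place after the table had been seen.

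Results were recomputed without dim probe sets (19192 with a mean above 4.35 were kept), with array weights, with the replicate block, after quantile normalization, after setting all array medians equal, with limma's trended and robust variance, with a gene's probe sets averaged, with the compared groups alone, by the design text's analysis of variance, and without each array in turn. Promoters come from RefSeq (GRCm38.p6). Plots used matplotlib 3.10.9 (Python 3.11.15).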

Additional observations from a re-analysis of the deposited data

Results flagged for a closer look

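In 5 of 132 sets of values (33 genes in 4 groups) a single liver stood apart from the rest of its group by Dixon's criterion, which chance alone meets in about 1 of 20 sets. Orm3 in male WT replicate 4 was the lowest, at 4.46, with the other 4 livers at 5.43 to 5.61. Fgb in the same liver was the highest, at 14.02, with the others at 13.74 to 13.82. Cp in male KO replicate 5 was the highest, at 11.18, with the others at 10.72 to 10.84. Il6ra in female KO replicate 2 was the lowest, at 7.52, with the others at 8.07 to 8.19. Cebpb in female WT replicate 1 was the lowest, at 8.81, with the others at 9.47 to 9.66. None of the 25 genes for which male KO replicate 3 was the highest of its group met the criterion in that liver.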

How the results depend on the processing

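Of the counts and medians recomputed under the alternatives, 495 stayed within their bounds and 15 moved, and of the values of the genes named in each comparison and of the 6 passing relations with Saa2, 1488 kept direction and side of the threshold, 51 lost a call, 4 gained one and 0 reversed. By the design text's analysis of variance (unadjusted p under 0.05 and a change over 20%), 3 members passed in females and 6 in males. Those counts are out of 33 members, and 397 and 582 of 38385 probe sets passed. After adjustment 7 and 3 probe sets passed, with no member among them. With an intensity trend and robust variance 1 member passed in males (Itih4). Leaving out single arrays gave 0 to 1 passing members in males and 0 to 1 in the average of the sexes, 9 to 21 passing probe sets in males (21 without male WT replicate 6), and a median sex difference in KO of -0.06 to 0.05 (0.05 without male KO replicate 3). The relations with Saa2 that passed numbered 1 without the 2 farthest arrays, 2 without the male WT arrays and 1 without the male KO arrays, and 5 to 8 under the other settings. With the replicate block, 0 members passed between KO and WT in either sex, 12 in WT and 9 in KO passed between the sexes, and 18, 13, 27 and 4 probe sets passed for females, males, the average and the difference of KO effects. Deviations of same-numbered livers correlated at -0.14 to 0.21 over all probe sets. That cannot decide whether the numbers pair the samples, since the labels do not say what the numbers stand for. The block changed no member's call. After equal array medians the probe sets passing in females split into 11 higher and 9 lower, against 9 and 12. The trend and robust variance ended the Lcn2 calls between the sexes (limma, adjusted p = 0.0747 in WT and 0.0878 in KO), as did fitting only the KO groups (0.073), and fitting only the WT groups ended that of Ahsg (0.0973). Il6ra in KO was lost after quantile normalization (0.41, limma, adjusted p = 0.0792) and with the mean of its probe sets (0.20, 0.212). Members outside those named also gained calls in KO between the sexes: Hp with dim probe sets left out (-0.18, limma, adjusted p = 0.0405), array weights and the trend (-0.19 and -0.18), Ahsg with dim probe sets left out, the trend and without female KO replicate 2 (0.16, 0.16 and 0.19), and Orm2 without male KO replicate 3 (1.01, limma, adjusted p = 0.00903). Orm1 passed in its relation with Saa2 without the female WT or female KO arrays (permutation, adjusted p = 0.044 and 0.03), and Steap4 and Lcn2 without the female WT arrays (0.0361 for both). The cause of these changes was not tested. Calls of Mt1, Mt2, Apcs, Agt, Orm3, Orm2, Itih4, Itih2, Il6st, Lrg1 and Saa4 held under each of 31 settings in the comparison that made them, as did Il6ra in WT.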
